A study of Mus musculus with 15 samples.

Results

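The report covers 10 contractile and actin-binding genes of mouse retinal pigment epithelium (RPE), chosen by gene symbol: *Acta2*, *Tagln*, *Myl9*, *Cnn1*, *Cnn2*, *Tpm1*, *Tpm2*, *Ablim1*, *Rai14* and *Tes*. All 10 were listed in both count tables, among 20910 genes in the mRPE table and 25038 in the RPE/choroid table, and all 10 passed the filter on low counts in every comparison. RNA-seq was performed on 9 libraries of cultured mRPE cells, RPE cells of C57BL/6J mice immortalised with lentiviral HPV E6/E7. They comprised 4 WT libraries, 3 libraries of the Prom1KO 22 line (KO22) and 2 of the Prom1KO 26 line (KO26). Each knockout line was made from cells carrying lentiviral Cas9 with a *Prom1* guide RNA, and each stands for 1 clone. The study's methods do not say whether the sequenced WT cells carried Cas9. The other 6 libraries came from dissected RPE/choroid of *Prom1* fl/fl mice crossed with RPE65-Cre and given tamoxifen, 3 labelled WT and 3 labelled *Prom1* KO. The age of these mice was not given in the sources used here, and nothing in the labels says that the libraries of a group came from separate cultures or animals, so the p-values measure the spread between libraries, which may be technical.

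The mRPE libraries carry a library order number at the start of their names, which the study treats as the sequencing batch. Order 8995 holds 1 library each of WT, KO22 and KO26, and order 9262 holds 3 WT, 2 KO22 and 1 KO26 library. Total counts ranged from 8076188 to 27537863 in the mRPE libraries and from 48154444 to 61766179 in RPE/choroid. *Prom1* had no row in the mRPE table, so the knockout could not be checked there. In RPE/choroid, *Prom1* stood at 48.7, 49.6 and 53.3 CPM (counts scaled to a common library total, with TMM factors) in the WT libraries and at 49.9, 48.1 and 35.5 CPM in those labelled KO (log2 difference −0.18 ± 0.16, edgeR adjusted p = 0.824), and the deleted exon cannot be seen in a count per gene. Of 13 RPE markers, 8, among them *Rpe65* and *Rlbp1*, were not listed in the mRPE table, so the epithelial identity of the cultured cells was not seen in those genes, and 8 of 9 fibroblast markers were listed. In RPE/choroid all 13 RPE markers were listed, with a summed level of 2621 to 3586 CPM in WT and 1226 to 1393 CPM in the libraries labelled KO, and 4 of the 13 were called lower. RPE/choroid KO replicate 3 stood apart, with 84.2% of its counts in mitochondrially encoded genes against 64.9% to 71.3% in the other 5 libraries.

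A cell pulls on its surroundings with bundles of actin filaments on which myosin II motors slide, and the force is switched on when the regulatory light chain of myosin is phosphorylated. Tropomyosins lie along the filament and calponins and transgelin bind it, while LIM-domain and ankyrin-repeat proteins tie the bundles to adhesions and to the cell cortex. Many of the smooth muscle genes of this kind are transcribed through serum response factor (SRF), which binds the CArG box, and RPE cells that lose their epithelial form are known to build stress fibres containing alpha-smooth muscle actin, the product of *Acta2*.

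The genes lie on different chromosomes except for 2 groups. In GRCm39, *Acta2* is at chr19:34217737-34232990 and *Ablim1* at chr19:57021165-57303351, both on the minus strand. *Tagln* is at chr9:45840909-45847404 (minus), *Cnn1* at chr9:22010512-22020926 (plus) and *Tpm1* at chr9:66929870-66956953 (minus). *Myl9* is at chr2:156617084-156623579 (plus), *Cnn2* at chr10:79824410-79831896 (plus), *Tpm2* at chr4:43514697-43524949 (minus), *Rai14* at chr15:10569055-10715959 (minus) and *Tes* at chr6:17065144-17105827 (plus). All but *Cnn2* and *Tpm2* overlap another annotated gene, as *Tagln* does *Gm48529* and *Tpm1* does *Gm30639* on the opposite strand. The strand setting of the counting was not given in the sources used here, so reads of these pairs may not be separated, and the actin and tropomyosin genes may lose reads shared with their paralogs.

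Promoter windows were available from RefSeq (GRCm38.p6, 250 bases before to 50 bases after the start) for 9 of the 10 genes, 14 windows in all. They were searched on both strands for the CArG box (CC, a core of 6 bases A or T, GG), for the same box with 1 base of the core changed to C or G, and for the TEAD motif CATTCC, and on the gene's strand for the TATA box TATAAA. The CArG box was found in 2 genes, *Myl9* and *Cnn2*, in 2 of the 14 windows, against 1.63% of all 32851 windows. The box with 1 changed base was found in *Acta2*, *Myl9* and *Rai14*, in 4 of the 14 windows, against 8.5% of all windows. CATTCC was found in *Acta2*, *Tpm1*, *Ablim1* and *Rai14*, in 5 of the 14 windows, against 14.7% of all windows. TATAAA was found in *Ablim1* and *Rai14*, in 2 of the 14 windows, against 8.32% of all windows. The first 2 patterns exclude each other by definition, and a match describes the letters in the window and not a bound site. The 250 bases before the start are shown for *Acta2*, *Myl9* and *Cnn2*, which held a CArG pattern and were lower in KO22. They are also shown for *Tes*, the gene that rose most in KO22, in which none of the 4 patterns was found. Other genes went differently: *Rai14* held the CArG box with 1 changed base and was higher in KO22, and *Ablim1*, which fell most, held no CArG pattern. The part of these patterns in the changes was not tested. Capitals mark the CArG patterns and, in *Acta2*, also the TEAD motif on the reverse strand.
*Acta2* (chr19:34255374-34255623, minus): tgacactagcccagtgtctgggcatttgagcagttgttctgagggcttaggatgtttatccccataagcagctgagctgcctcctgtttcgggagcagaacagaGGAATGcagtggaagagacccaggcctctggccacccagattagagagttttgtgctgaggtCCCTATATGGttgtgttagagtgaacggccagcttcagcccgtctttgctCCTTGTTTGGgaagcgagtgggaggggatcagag
*Myl9* (chr2:156775214-156775463, plus): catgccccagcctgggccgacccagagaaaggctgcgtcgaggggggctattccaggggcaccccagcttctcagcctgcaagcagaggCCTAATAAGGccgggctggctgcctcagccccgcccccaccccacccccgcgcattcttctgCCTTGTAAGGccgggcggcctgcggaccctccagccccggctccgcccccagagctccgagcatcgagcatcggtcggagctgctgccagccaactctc
*Cnn2* (chr10:79988350-79988599, plus): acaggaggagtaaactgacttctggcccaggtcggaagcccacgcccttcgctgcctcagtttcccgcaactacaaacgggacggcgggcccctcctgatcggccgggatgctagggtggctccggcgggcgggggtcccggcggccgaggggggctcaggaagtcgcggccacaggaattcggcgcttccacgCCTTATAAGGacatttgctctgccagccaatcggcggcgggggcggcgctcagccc
*Tes* (chr6:17064899-17065148, plus): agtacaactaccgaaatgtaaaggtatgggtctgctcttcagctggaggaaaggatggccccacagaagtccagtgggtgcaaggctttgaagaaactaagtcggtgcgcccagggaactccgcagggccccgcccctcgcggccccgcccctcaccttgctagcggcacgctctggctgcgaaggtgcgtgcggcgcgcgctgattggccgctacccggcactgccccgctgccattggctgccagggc

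Against WT, the KO22 cells held less mRNA of *Acta2*, *Tagln*, *Myl9*, *Cnn2* and *Ablim1* and more of *Rai14*, *Tes* and *Cnn1*. Thus 8 of the 10 genes were called, 5 lower and 3 higher, that is, with an edgeR adjusted p below 0.05 and a log2 fold change beyond 1.2 in either direction, which are the study's limits. Library order was a covariate. Over all 20455 genes tested, 25.2% were called, 13.8% lower and 11.4% higher. The 10 genes were chosen with earlier results of these data known. The study names *Ablim1* and *Rai14* among its leading changes in a comparison that used these KO22 libraries. The count of 8 is therefore not read against the share of all genes. The log2 fold changes of the 10 ran from −4.37 to 3.75 with a median of −0.74, and the median of all genes was −0.03. In 7 of the 10 genes the KO22 and WT libraries did not overlap, as in 50.1% of all genes. *Tpm1* and *Tpm2* were not called.

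*Acta2* encodes alpha-smooth muscle actin. It stood at 1653 CPM in the WT library of order 8995 and at 641, 589 and 642 CPM in those of order 9262. In KO22 it was 233 CPM in order 8995 and 153 and 147 CPM in order 9262. All 3 KO22 libraries lay below all 4 WT libraries, and KO22 was lower within either order. The log2 fold change was −2.28 ± 0.17 (adjusted p = 6.43e-06).

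*Tagln* encodes transgelin, a calponin-family protein that bundles actin. WT libraries held 93.5 CPM in order 8995 and 35.5, 31.7 and 39.1 CPM in order 9262, and KO22 libraries 23.4 CPM and then 10.0 and 9.70 CPM. The groups did not overlap, and the log2 fold change was −1.89 ± 0.13 (adjusted p = 3.89e-06). *Myl9*, the regulatory light chain of myosin II, stood at 103, 44.4, 42.0 and 41.9 CPM in WT and at 13.8, 8.15 and 5.28 CPM in KO22. Even the highest KO22 library, that of order 8995, was far below the lowest WT library (log2 fold change −2.73 ± 0.16, adjusted p = 2.24e-06).

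The 2 calponins went opposite ways. *Cnn2*, the calponin of many non-muscle cells, measured 302, 181, 221 and 208 CPM in WT and 105, 91.7 and 88.1 CPM in KO22, without overlap, and its log2 fold change of −1.28 ± 0.12 (adjusted p = 3.16e-05) was close to the limit of 1.2. Without WT replicate 1 it was −1.19 and without KO22 replicate 1 it was −1.17, so the call was lost, though the adjusted p was 1.59e-09 and 1.27e-09. Either omission leaves order 8995 with 1 library, which the order term takes up. Both estimates therefore rest on order 9262 and are not separate checks. *Cnn1*, the calponin of differentiated smooth muscle, was scarce, with 25, 5, 4 and 4 counts in the WT libraries and 74, 16 and 11 counts in KO22. In CPM these were 0.993 in the WT library of order 8995 and 0.343, 0.393 and 0.287 in order 9262, against 6.40 in KO22 of order 8995 and 0.771 and 0.854 in order 9262. KO22 was higher within each order, but across orders the groups overlapped. The log2 fold change of 1.94 ± 0.40 (adjusted p = 0.00266) fell to 1.25 without KO22 replicate 1 (adjusted p = 0.0405) and to 1.23 without WT replicate 1 (adjusted p = 0.0336). Both of these fits again rest on order 9262.

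The tropomyosins did not change by these limits. *Tpm1* stood at 762, 318, 335 and 331 CPM in WT and at 637, 477 and 543 CPM in KO22, so KO22 was lower than WT in order 8995 and higher in order 9262. Its log2 difference was 0.38 ± 0.17 (adjusted p = 0.0871). *Tpm2* stood at 480.4, 244, 251 and 234 CPM in WT and at 312, 233 and 249.6 CPM in KO22 (log2 difference −0.19 ± 0.13, adjusted p = 0.266). In order 9262 the *Tpm2* values of the 2 groups overlapped, and in order 8995 WT was higher.

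*Ablim1*, a LIM protein that binds actin filaments, had the largest decrease of the 10 genes. It measured 162 CPM in the WT library of order 8995 and 187, 216 and 203 CPM in order 9262. KO22 libraries held 7.87, 10.7 and 8.77 CPM, far below any WT library, for a log2 fold change of −4.37 ± 0.14 (adjusted p = 1.61e-07). *Rai14*, the ankyrin-repeat protein ankycorbin of the cell cortex, went from 48.5, 46.1, 44.8 and 44.6 CPM in WT to 324, 332 and 322 CPM in KO22. Both groups were tight and apart (log2 fold change 2.82 ± 0.10, adjusted p = 3.1e-07). *Tes* encodes testin, a LIM protein of focal adhesions and cell contacts, and rose from 19.9, 15.2, 11.5 and 13.1 CPM in WT to 220.3, 183 and 208 CPM in KO22 (log2 fold change 3.75 ± 0.14, adjusted p = 3.23e-07). The plot of CPM by mRPE library shows these separations and the place of each library order.

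**Figure D1:**
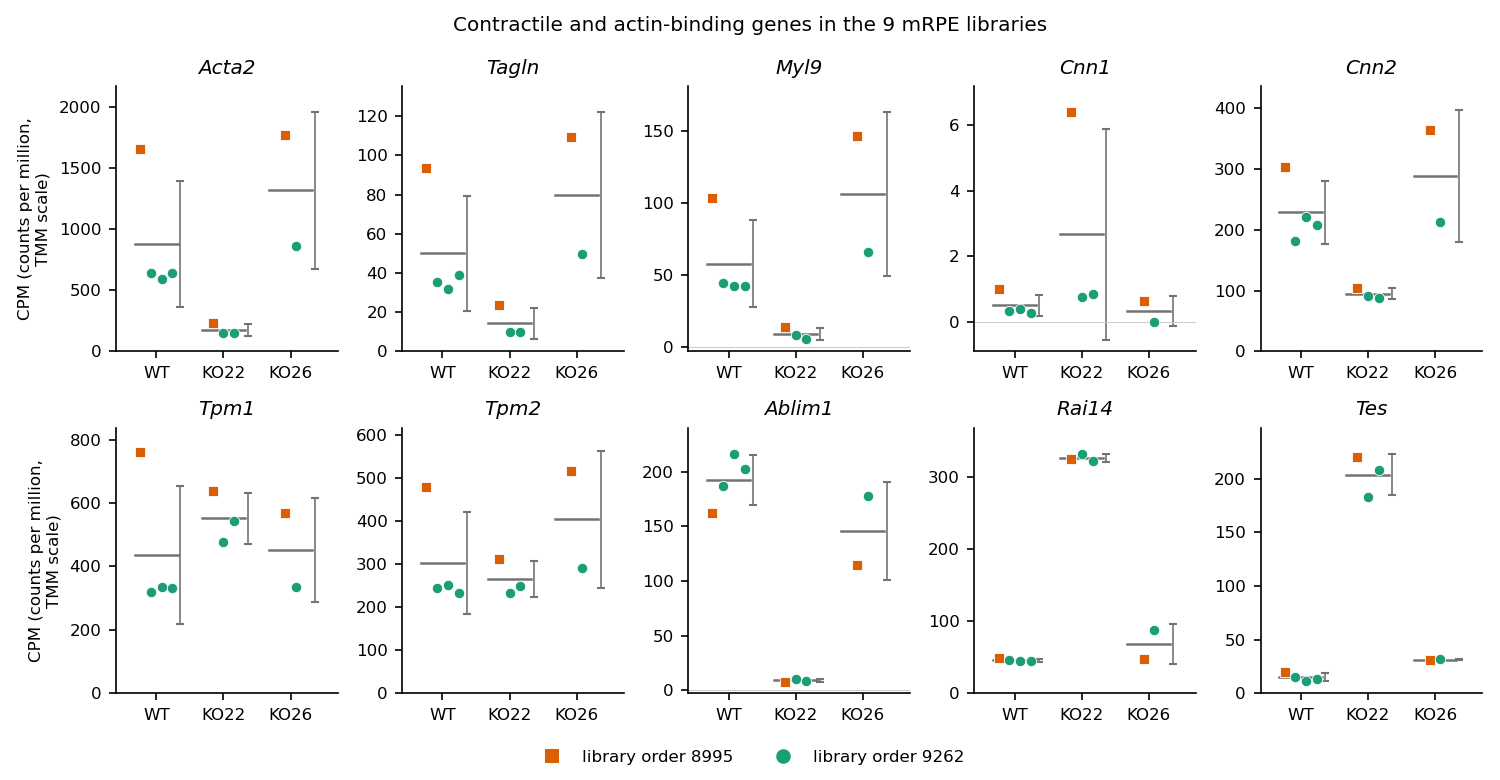
CPM on the TMM scale (vertical axis, linear from 0) of each gene in the WT, KO22 and KO26 libraries of mRPE, with 1 point for each library, orange squares for library order 8995, green circles for order 9262, horizontal lines for group means and bars for the SD (n = 4, 3 and 2). The KO22 points of *Acta2*, *Tagln*, *Myl9*, *Cnn2* and *Ablim1* lie below every WT point and those of *Rai14* and *Tes* above, while the orange WT point lies highest for *Acta2*, *Tagln*, *Myl9*, *Cnn1*, *Cnn2*, *Tpm1* and *Tpm2*.

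In the KO26 clone none of the 10 genes was called against WT, where 1.92% of 20737 genes were (DESeq2 also called 0 of the 10, and 5 had an unadjusted edgeR p under 0.05, as did 20.1% of all genes). *Tes* alone passed the adjusted p, which 3.5% of all genes did, at 31.1 and 31.9 CPM, above every WT library (the libraries did not overlap in 24.7% of all genes), with a log2 difference of 1.02 ± 0.17 (adjusted p = 0.0138) that was below the fold limit. Without WT replicate 1 or KO26 replicate 1, that difference was 1.205 or 1.206 and *Tes* was called. *Acta2* stood at 1770.3 and 866 CPM in KO26, *Tagln* at 109.6 and 49.6 CPM, and *Myl9* at 146 and 65.6 CPM. In each of these genes the KO26 library was above the WT library or libraries of its own order, with log2 differences of 0.36 ± 0.17, 0.38 ± 0.14 and 0.59 ± 0.16 (adjusted p = 0.273, 0.155 and 0.0778). *Ablim1* at 114 and 178 CPM (adjusted p = 0.242) and *Rai14* at 48.3 and 87.7 CPM (adjusted p = 0.122) were not called. *Cnn2* stood at 364 and 212 CPM, *Tpm1* at 569 and 337 CPM and *Tpm2* at 516 and 292 CPM, with adjusted p of 0.533, 0.8 and 0.417. *Cnn1* had 14 counts in KO26 replicate 1 and 0 in replicate 2. The 2 KO26 libraries, 1 for each order, were left out of the study's own comparison as outliers.

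The clones were then compared directly. KO22 and KO26 differed in 8 of the 10 genes, 5 lower and 3 higher in KO22, where 10.7% of all genes were lower and 7.56% higher. The 8 were the 8 called against WT, a comparison that shares the KO22 libraries, and in all 8 the libraries of the clones did not overlap, as in 47.9% of all genes. The log2 differences, KO22 minus KO26, were −2.65 ± 0.19 for *Acta2*, −2.27 ± 0.15 for *Tagln*, −3.32 ± 0.18 for *Myl9*, −1.47 ± 0.16 for *Cnn2* and −4.04 ± 0.16 for *Ablim1*. They were 2.26 ± 0.22 for *Rai14*, 2.74 ± 0.20 for *Tes* and 3.20 ± 0.58 for *Cnn1*. *Tpm1* and *Tpm2* were not called (adjusted p = 0.0965 and 0.0676). The plot of fold changes sets the clones side by side, and both are compared with the same WT libraries.

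**Figure D2:**
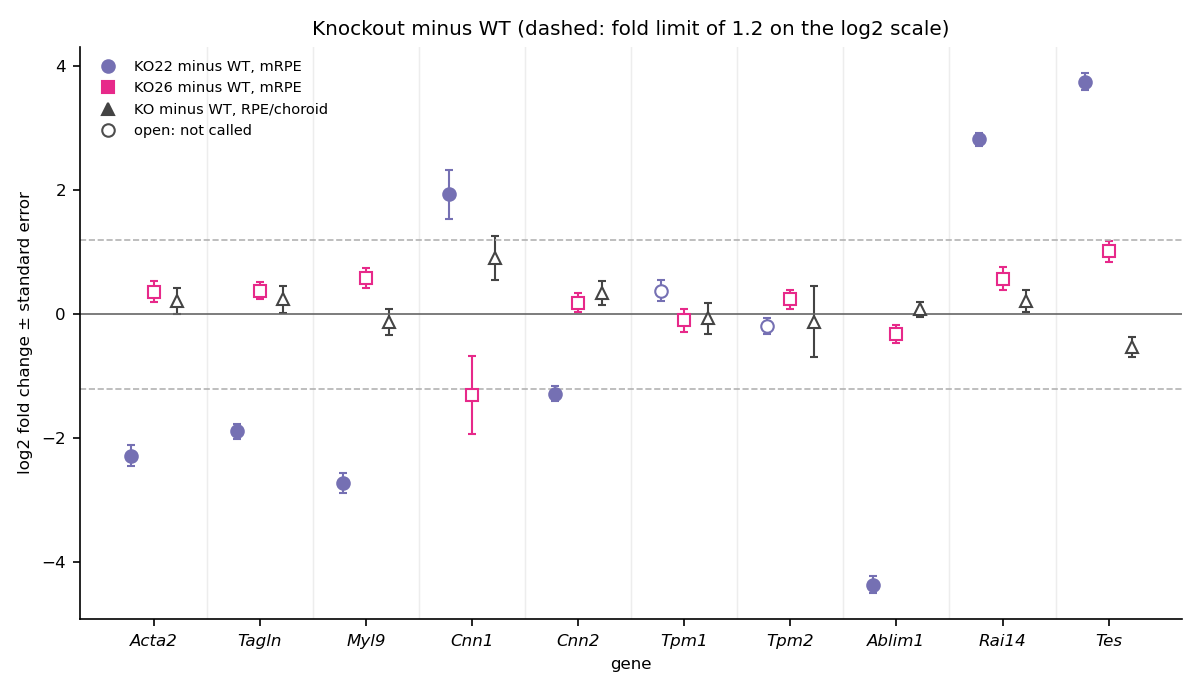
Log2 fold change with its standard error (vertical axis) of each gene for KO22 minus WT and KO26 minus WT in mRPE and for KO minus WT in RPE/choroid. Filled symbols were called, open symbols were not, and dashed lines mark the fold limit of 1.2. Filled symbols appear for KO22 alone, in 8 of 10 genes.

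The contractile genes also differed between the library orders. With group as a term, 7 of the 10 genes passed the adjusted p for order 9262 minus 8995, all 7 lower in order 9262, against 4.31% of all genes lower by that rule. These 7 were the contractile genes, and the 3 actin-binding genes *Ablim1*, *Rai14* and *Tes* did not pass. With the fold limit 2 were called, *Tagln* (−1.28 ± 0.11, adjusted p = 0.000911) and *Cnn1* (−2.49 ± 0.40, adjusted p = 0.007), against 0.661% of all genes called lower. *Acta2* differed by −1.06 ± 0.14 and *Myl9* by −1.16 ± 0.13 (adjusted p = 0.00367 and 0.00221). *Tpm1* differed by −0.81 ± 0.15, *Tpm2* by −0.74 ± 0.13 and *Cnn2* by −0.51 ± 0.12 (adjusted p = 0.0133, 0.00905 and 0.0334). Without KO22 replicate 1 the number called was 4, and in the WT libraries alone, where order 8995 has 1 library, it was also 4.

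Within WT, the library of order 8995 held 2.65 times the mean CPM of the 3 libraries of order 9262 for *Acta2*, 2.64 times for *Tagln*, 2.41 times for *Myl9*, 2.32 times for *Tpm1*, 1.98 times for *Tpm2* and 1.48 times for *Cnn2*. In KO22 these ratios were 1.56 for *Acta2*, 2.38 for *Tagln*, 2.05 for *Myl9*, 1.25 for *Tpm1*, 1.29 for *Tpm2* and 1.17 for *Cnn2*. In KO26 they were 2.05, 2.21, 2.23, 1.69, 1.77 and 1.72 in the same sequence. All 7 contractile genes were thus lower in order 9262 in WT, KO22 and KO26 alike, as were 15.2% of all 20737 genes, and none of the 3 actin-binding genes was lower in all 3 groups. *Ablim1* was lower in order 8995, with ratios of 0.805 in WT, 0.808 in KO22 and 0.643 in KO26.

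**Figure D3:**
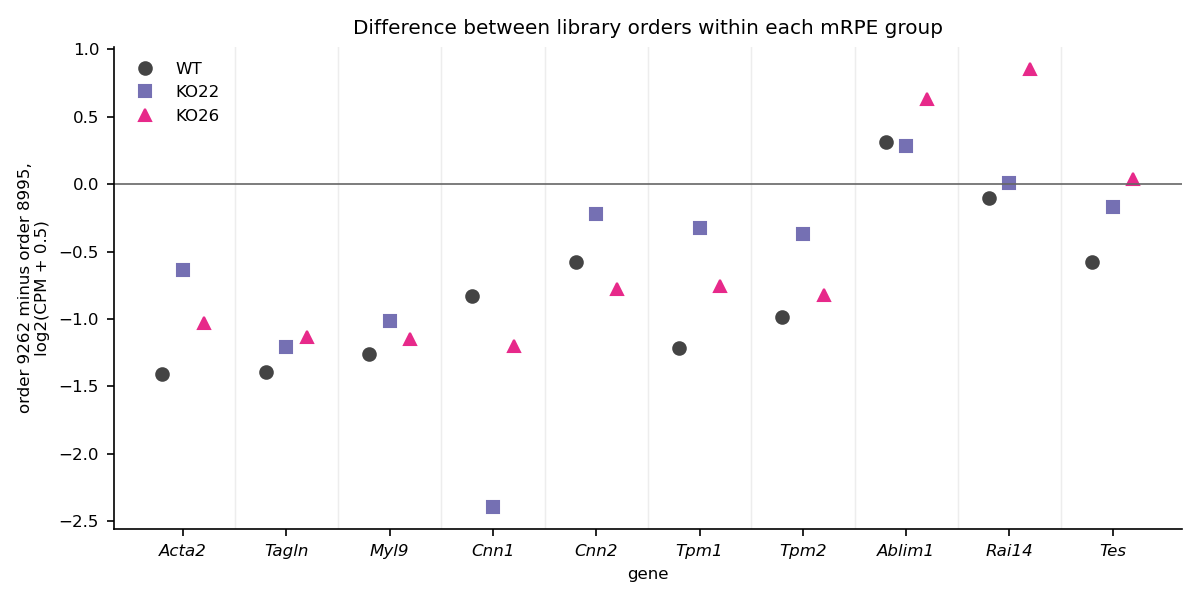
Difference between library orders within WT, KO22 and KO26, order 9262 minus order 8995, in log2(CPM + 0.5) (vertical axis), with 1 symbol for each group and gene. All symbols of the 7 contractile genes lie below 0, and the 3 symbols of *Ablim1* lie above 0.

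The difference between KO22 and WT was also compared between the orders. No gene of the 10 was called for this interaction, and 11.1% of all 20455 genes were. By the adjusted p alone 3 passed, and 26.6% of all genes did: *Acta2* (0.76 ± 0.19, adjusted p = 0.00455), *Tpm1* (0.89 ± 0.19, adjusted p = 0.00125) and *Tpm2* (0.61 ± 0.17, adjusted p = 0.0127). The KO22 minus WT difference in log2(CPM + 0.5) was −2.82 in order 8995 and −2.06 in order 9262 for *Acta2*, so KO22 was lower in both. For *Tpm1* it was −0.26 and 0.63, and for *Tpm2* −0.62 and −0.01. Of the genes that did not pass, *Cnn1* stood at 2.21 and 0.64 and *Cnn2* at −1.52 and −1.17. The other values were −1.97 and −1.79 for *Tagln*, −2.86 and −2.61 for *Myl9*, −4.28 and −4.31 for *Ablim1*, 2.73 and 2.84 for *Rai14* and 3.44 and 3.84 for *Tes*. Order 8995 holds 1 library of each group, so its value has no replicate check.

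Per kilobase of annotated exon, *Acta2* was the most abundant of the 10 genes in WT mRPE, at 273 ± 159.6 CPM per kb (SD, n = 4), and its lowest library lay above every library of the next gene. *Cnn2* (92.5 ± 21.1), *Tpm2* (71.3 ± 28.1), *Tpm1* (54.1 ± 26.9), *Myl9* (25.2 ± 13.1), *Tagln* (24.4 ± 14.3) and *Ablim1* (16.1 ± 1.92) followed, and in that sequence each gene's range over the libraries overlapped that of the next. Within every single WT library, *Cnn2* was above *Tpm2*, *Tpm2* above *Tpm1*, and *Tpm1* above *Myl9*, *Tagln* and *Ablim1*. The sequence of *Myl9*, *Tagln* and *Ablim1* varied between libraries. *Rai14* (3.58 ± 0.141), *Tes* (1.58 ± 0.387) and *Cnn1* (0.184 ± 0.120) came last, without overlap. In WT RPE/choroid, *Tpm2* was highest (22.1 ± 7.76 CPM per kb, n = 3), *Tpm1* (11.1 ± 1.40), *Acta2* (10.6 ± 3.16), *Cnn2* (10.1 ± 0.717), *Myl9* (8.86 ± 1.69) and *Ablim1* (7.78 ± 0.485) overlapped their neighbours, and *Cnn1* was again lowest (0.414 ± 0.0626). Between them stood *Tagln* (3.23 ± 0.841), *Tes* (2.80 ± 0.260) and *Rai14* (1.53 ± 0.265). The exon length used is that of all annotated transcripts joined, which lowers the value of genes with long unused exons.

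Across the 9 mRPE libraries, the closest pair among the 10 genes was *Acta2* and *Tagln*. After each gene was centred on its mean log2 CPM, the root-mean-square difference was 0.258 for that pair, 0.322 between *Acta2* and *Myl9*, 0.349 between *Tpm1* and *Tpm2* and 0.476 between *Tagln* and *Myl9*. The difference is not scaled to a gene's own spread, so genes with little spread lie near each other more readily. The SD over the 9 libraries was 0.477 for *Tpm1*, 0.442 for *Tpm2*, 1.34 for *Acta2*, 1.22 for *Tagln* and 1.62 for *Myl9*. Of 9464 genes compared, those nearest to *Acta2* were *Tagln*, *Il17rd* (0.274) and *Gm48529* (0.307), and those nearest to *Tagln* were *Gm48529* (0.101), *Acta2* and *Cercam* (0.271). *Gm48529* overlaps *Tagln* on the other strand, so that likeness may come from shared reads. *Myl9* was nearest to *Pde7b* (0.293) and *Cthrc1* (0.321). *Ablim1* was nearest to *Pde8b* (0.235), *Ctsf* (0.253) and *Postn* (0.263), *Rai14* to *Adcy7* (0.199), *Il18rap* (0.217) and *Nrn1* (0.230), and *Tes* to *Nqo1* (0.267), *Tfrc* (0.293) and *Il18rap* (0.346). *Cnn2* was nearest to *Gm26596* (0.137), *Yif1a* (0.142) and *Ccdc80* (0.143), and *Tpm2* to *Cacfd1* (0.0573), *Lrrc8a* (0.0618) and *Sar1a* (0.102). *Tpm1* was nearest to *Srsf2* (0.127) and to *Gm30639* (0.129), which overlaps it, and no gene came closer to *Cnn1* than *Mt1* (0.677). These distances describe libraries that share clone, order and depth.

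Genes that work with the 10 were taken from 10 lists, 135 genes in all. In KO22 against WT, 124 were tested, of which 8 were called higher and 14 lower, or 17.7%, below the 25.2% of all genes. The list of SRF and YAP target genes had 6 of 17 called lower and 1 higher, against 13.8% and 11.4% of all genes. Its median log2 fold change was −1.04 against −0.03 for all genes. *Fhl1*, a LIM-only protein of muscle, fell from 115 to 179 CPM in WT to 0.951 to 6.36 CPM in KO22 (log2 fold change −5.39 ± 0.34, adjusted p = 2.91e-06). *Amotl2*, an angiomotin that binds YAP (−1.29 ± 0.12), and *Tgfb1i1*, the adhesion LIM protein Hic-5 (−1.21 ± 0.12), were also lower, and *Filip1l* was higher (1.201 ± 0.19). Among the factors themselves, *Tead3* was lower (−1.58 ± 0.18) and *Tead2* higher (1.25 ± 0.33, with overlapping libraries), and the other 7 tested were not called.

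Of the myosin II motor and its regulators, *Mylk* was called in KO22 against WT, 1 of 9 tested, where 25.2% of all genes were called. It encodes myosin light chain kinase, which phosphorylates the light chain made by *Myl9*. *Mylk* stood at 17.4 to 33.4 CPM in WT, 1.12 to 3.66 CPM in KO22 (log2 fold change −3.34 ± 0.19, adjusted p = 1.79e-06) and 59.6 and 108 CPM in KO26 (1.82 ± 0.16, adjusted p = 0.00139). *Actg2*, smooth muscle gamma actin, was likewise lower in KO22 (−1.36 ± 0.33, adjusted p = 0.00706) and higher in KO26 (1.99 ± 0.31, adjusted p = 0.0107). These 2 genes lay outside the WT range in opposite directions in the clones. They were the 2 list genes called in KO26, 1.6% of 125 tested, where 1.92% of all genes were called.

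*Tagln2*, a transgelin paralog, rose in KO22 (1.82 ± 0.12, adjusted p = 4.08e-06) while *Tagln* fell. It was the 1 gene called of 8 other tropomyosins, calponins, transgelins and tropomodulins. The counts called in this and the next lists stand against 25.2% of all genes. *Pdlim2* was lower (−2.35 ± 0.17), 1 of 15 LIM and VASP family genes tested. Of the crosslinkers and membrane linkers, *Eps8* was higher (1.21 ± 0.13) and *Svil*, supervillin, lower (−1.27 ± 0.11), 2 of 13 tested. *Coro1c* was higher (1.29 ± 0.12) and *Gsn*, the severing protein gelsolin, lower (−1.63 ± 0.12), 2 of 22 actin turnover genes. In the focal adhesion core, *Parvb*, beta-parvin, was higher (3.20 ± 0.26) and *Lims2*, a PINCH protein of the same complex, lower (−4.95 ± 0.25), 2 of 10 tested. The plot of 9 of the lists shows that most of their genes lay within the fold limit.

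**Figure D4:**
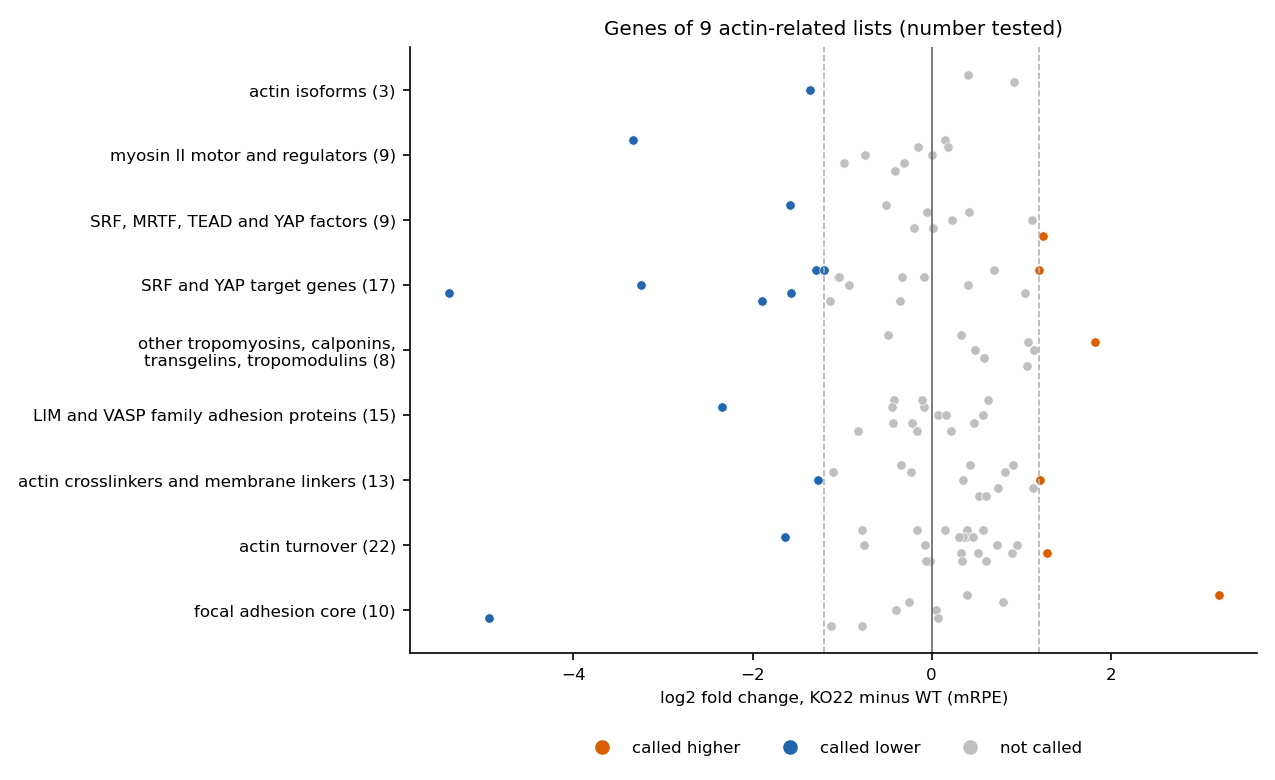
Log2 fold change KO22 minus WT in mRPE (horizontal axis) of the tested genes of 9 actin-related lists, 1 point for each gene, with the number tested after each list's name. Orange points were called higher and blue points lower, dashed lines mark the fold limit of 1.2, and the vertical spread within a list has no meaning. Blue points are most frequent in the list of SRF and YAP target genes, with 6 of 17, and 13.8% of all genes tested were called lower.

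Markers of other cell types moved with the KO22 line. Of 15 vascular smooth muscle and pericyte markers, 12 were listed in mRPE (*Myocd*, *Kcnmb1* and *Abcc9* were not). The 12 summed to 395 to 423 CPM in WT, 229 to 266.1 CPM in KO22 and 471 to 578 CPM in KO26. That sum is mostly *Pdgfrb*, at 322 ± 20.7 CPM in WT (SD, n = 4) and 129 ± 16.6 CPM in KO22 (n = 3). In KO22, 11 were tested, of which 5 were called lower and 2, *Cspg4* and *Kcnj8*, higher, against 13.8% and 11.4% of all genes. *Smtn* (log2 difference 1.04) and *Notch3* (1.02) were higher but below the fold limit. In WT, *Myh11* stood at 0.555 ± 0.249 CPM and *Des* at 0.109 ± 0.219 CPM. The fibroblast markers summed to 12813 to 17506 CPM in WT, 5625 to 8771 CPM in KO22 and 19873 to 21798 CPM in KO26. That sum is mostly the collagens *Col1a1*, *Col1a2* and *Col3a1*. In KO22, 8 fibroblast markers were tested, of which 4 were called lower and 1, *Fbln1*, higher (log2 fold change 3.58). *Col3a1*, *Dcn* and *Dpt* were not called. The 6 listed of 9 endothelial markers summed to 153 to 239 CPM in WT, 5.35 to 6.65 CPM in KO22 and 57.6 to 75.9 CPM in KO26, with *Cdh5*, *Tie1* and *Emcn* not listed. That sum is mostly *Kdr*, at 177 ± 38.7 CPM in WT (SD, n = 4) and 2.21 ± 1.71 CPM in KO22 (n = 3). *Kdr* and *Tek* were called lower in KO22, *Plvap* higher (log2 fold change 1.82, adjusted p = 0.0192, with overlapping libraries), and *Egfl7*, *Esam* and *Pecam1* were not called. The 5 listed of 13 RPE markers summed to 58.6 to 113 CPM in WT, 294 to 439.8 CPM in KO22 and 69.4 to 138 CPM in KO26. Skeletal muscle markers were at 12.1 CPM or less in sum in every mRPE library. The part of these in the results on the 10 genes was not tested.

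In RPE/choroid none of the 10 genes was called between the libraries labelled KO and WT, where 0.189% of 24926 genes were (DESeq2 also called 0 of the 10, and 2 of the 10 had an unadjusted edgeR p under 0.05, as did 8.3% of all genes). The groups did not overlap in 2 of the 10 genes, *Tes* and *Cnn1*, and in 14.6% of all genes. The tissue is bulk, so fewer cells of a type and less RNA per cell cannot be told apart. *Tes* stood at 24.4, 29.1 and 25.7 CPM in WT and at 15.2, 18.3 and 21.3 CPM in KO, each KO library below each WT library, but the log2 difference of −0.53 ± 0.16 did not pass (adjusted p = 0.384). *Cnn1* stood at 1.30, 1.13 and 0.962 CPM in WT and at 1.61, 1.52 and 3.32 CPM in KO, each KO library above each WT library (0.91 ± 0.35, adjusted p = 0.549). Without KO replicate 3, the library that stood apart, the *Cnn1* difference was 0.45.

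The genes that fell in KO22 overlapped between the tissue groups. *Acta2* was 46.1, 28.3 and 28.6 CPM in WT and 37.1, 43.0 and 38.8 CPM in KO. *Tagln* was 8.29, 6.68 and 4.85 CPM in WT and 6.62, 7.71 and 9.09 CPM in KO. *Ablim1* was 91.3, 99.4 and 88.1 CPM in WT and 95.2, 102 and 97.2 CPM in KO. The log2 differences of these 3 were 0.21 ± 0.21, 0.24 ± 0.22 and 0.08 ± 0.12 (adjusted p = 0.857, 0.843 and 0.91). *Myl9* ranged from 14.1 to 24.0 CPM and *Cnn2* from 23.7 to 40.9 CPM over the 6 libraries, and neither passed (adjusted p = 0.919 and 0.702). *Rai14* was 23.2, 19.4 and 16.4 CPM in WT and 26.3, 22.5 and 19.7 CPM in KO (adjusted p = 0.807).

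The tropomyosin *Tpm2* ranged widely from library to library in the tissue. *Tpm2* was 58.0, 101 and 123 CPM in WT and 32.1, 58.9 and 168 CPM in KO, and *Tpm1* was 77.1, 94.6 and 98.1 CPM in WT and 64.5, 74.0 and 119 CPM in KO. Each group therefore held both low and high libraries, and the log2 differences were −0.12 ± 0.58 and −0.07 ± 0.24 (adjusted p = 0.976 and 0.968). Without KO replicate 3, the *Tpm2* difference was −1.06 and was not called (adjusted p = 0.482). The skeletal muscle markers, all 11 listed, summed to 314, 699 and 989 CPM in WT and to 70.4, 261 and 868 CPM in KO, listed like the *Tpm2* values. Within each group the libraries with more *Tpm2* and *Tpm1* were thus those with more of these markers, whose part in the tropomyosin values was not tested. The 15 smooth muscle and pericyte markers summed to 394 to 504 CPM in WT and 364 to 444 CPM in KO, with none of them called. The plot of CPM by RPE/choroid library shows the overlap of the groups.

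**Figure D5:**
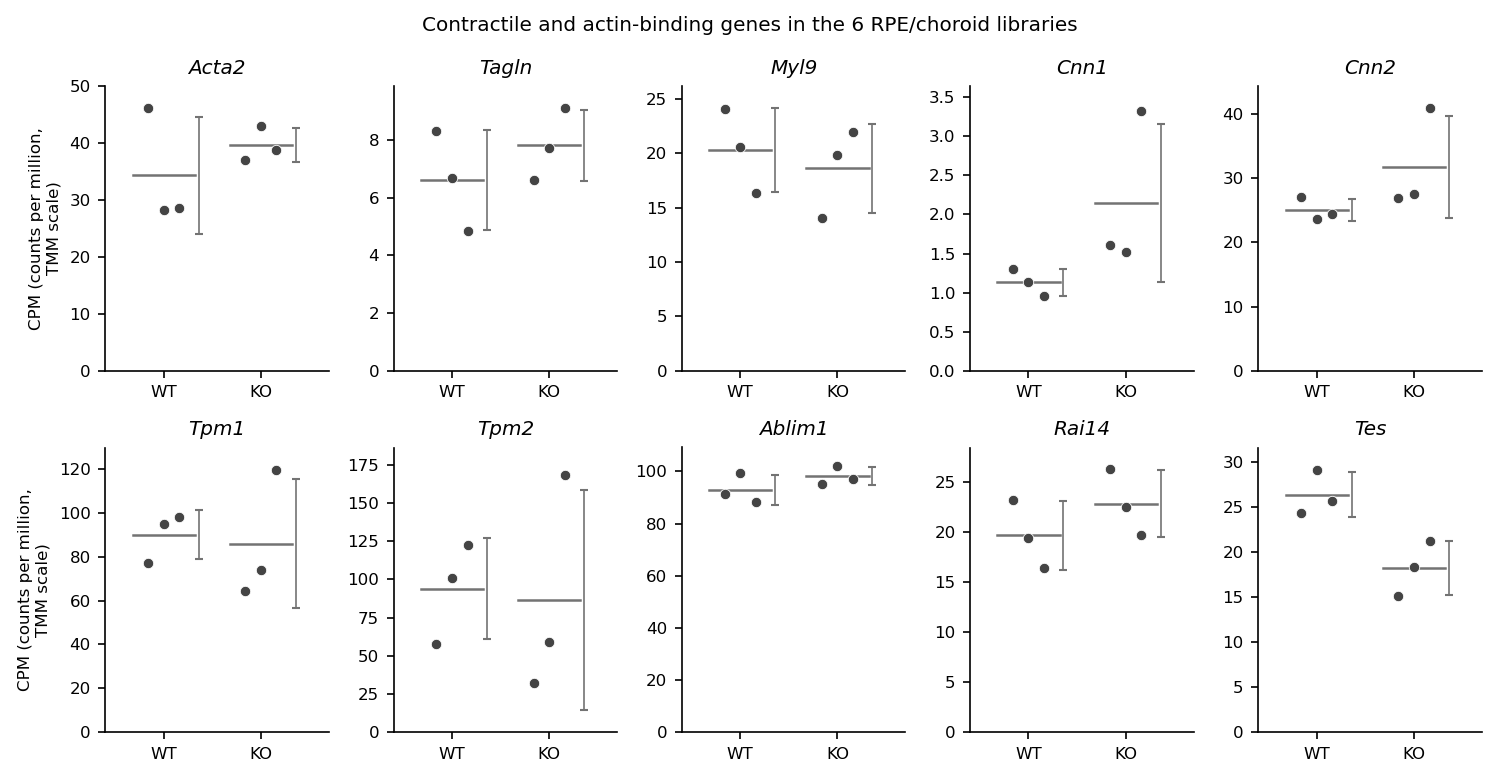
CPM on the TMM scale (vertical axis, linear from 0) of each gene in the 3 WT and the 3 KO libraries of RPE/choroid, with 1 point for each library, horizontal lines for group means and bars for the SD (n = 3 each). The groups overlap in 8 of the 10 genes, *Tes* lies lower in all KO libraries and *Cnn1* higher (14.6% of all genes did not overlap), and the *Tpm2* points spread from 32.1 to 168 CPM.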

How the data were processed

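RNA-seq counts were analysed for 9 mRPE and 6 RPE/choroid libraries, grouped by cell line, genotype and library order as the labels give them. Per the study's methods, the authors used TrimGalore for trimming and STAR for alignment to mm39 and for counting reads per gene, and left out genes with low counts, and those methods describe the mRPE libraries. The submitters' processing notes name Trim Galore 0.6.7, STAR, DESeq2 1.42.0 and mm39 for all libraries. The deposited raw counts per gene were used. The deposited size-factor-normalised values, a signal per gene, were not used, and no column was left without a sample.

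A gene entered a test where 3 or more of the fitted libraries held 5 or more counts. Tests used edgeR 4.0.16 (R 4.3.3; TMM scaling, glmQLFit and glmQLFTest, two-sided, Benjamini-Hochberg adjustment over all genes tested). A log2 fold change over the root of its F statistic served as its standard error. KO22 was compared with WT in 7 libraries, and KO26 with WT, KO22 with KO26 and the library orders in all 9, where KO26 takes its spread from the other groups too. Order was a term in the mRPE fits and its interaction with KO22 was tested apart. Calls needed an adjusted p below 0.05 and a log2 fold change beyond 1.2 either way. CPM values are on the TMM scale, computed for the mRPE and the tissue tables apart, so levels are not tested between them. Replicates of 1 group differed by more than sampling noise (chi-square per degree of freedom 4.8 to 247). Counting error falls with a gene's own counts, which were fewest for *Cnn1*. Total counts ranged from 8076188 to 61766179 and do not rank the libraries by that error. The largest total, that of RPE/choroid KO replicate 3, was 84.2% mitochondrially encoded. Exon lengths and positions came from GENCODE for GRCm39, where 26262 of 26509 gene identifiers matched.

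All 10 genes are named; from each of the 10 lists, up to 3 called genes in each direction with the smallest adjusted p in KO22 against WT are named, and up to 2 in KO26 against WT and in RPE/choroid; the 3 nearest genes were taken among genes with a mean of at least 10 CPM. Marker lists were of RPE, smooth muscle and pericyte, skeletal muscle, fibroblast, endothelial, macrophage and melanocyte genes. The genes of 1 of the 10 lists and a further marker list are not reported here by list. The genes and lists were chosen with earlier results of these data known. Alternatives were DESeq2 size factors, the DESeq2 test, no count filter, filterByExpr, no fold limit, no order term, 1 order alone, subsets of groups and leaving out each replicate in turn, and, chosen after seeing the data, RPE/choroid without mitochondrially encoded genes. The tests were run on simulated data first.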

Additional observations from a re-analysis of the deposited data

Results flagged for a closer look

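Among the 29 named genes, the 4 WT mRPE libraries were examined for a library far from the other 3. The rule flags about 1 in 20 sets of like libraries, and these libraries are not all of 1 order. In 8 genes the library of order 8995, WT replicate 1, stood alone as the highest. It held 1653 CPM of *Acta2*, 93.5 CPM of *Tagln*, 103 CPM of *Myl9*, 0.993 CPM of *Cnn1*, 762 CPM of *Tpm1* and 480.4 CPM of *Tpm2*. Beyond the 10 genes it held 19.9 CPM of *Actg2* and 48.2 CPM of *Coro1c*. It is the only WT library of its order, so order and library cannot be told apart within WT.

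The clones KO22 and KO26 differed, by the direct edgeR test, in 23 of the 29 genes, by the adjusted p and the fold limit, and in 18.3% of all genes. The 10 were chosen with earlier results of these data known. The other 19 genes were named for calls in comparisons that share these libraries, so the count is not read against that share. The log2 differences, KO22 minus KO26, were −2.65 for *Acta2*, −2.27 for *Tagln*, −3.32 for *Myl9*, 3.20 for *Cnn1*, −1.47 for *Cnn2*, −4.04 for *Ablim1*, 2.26 for *Rai14* and 2.74 for *Tes*. Among the genes of the lists, those lower in KO22 were *Actg2* (−3.35), *Mylk* (−5.15), *Rnd3* (−1.75), *Tead3* (−1.21), *Fhl1* (−5.73), *Tgfb1i1* (−1.39), *Pdlim2* (−2.20), *Svil* (−1.38), *Gsn* (−1.52) and *Lims2* (−5.36). Those higher in KO22 were *Diaph3* (1.25), *Rnd1* (2.03), *Filip1l* (1.25), *Tagln2* (1.27) and *Parvb* (3.09).

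The KO22 minus WT difference itself differed between library orders, by the edgeR adjusted p of the interaction, in 11 of the 29 genes and in 26.6% of all genes. The 29 include genes named for a difference between KO22 and WT in these libraries. The log2 difference KO22 minus WT was more positive in order 9262 by 0.76 for *Acta2*, 0.89 for *Tpm1*, 0.61 for *Tpm2*, 1.89 for *Actg2*, 0.72 for *Diaph3*, 1.82 for *Tead2*, 1.07 for *Filip1l*, 1.89 for *Fhl1*, 0.73 for *Pdlim2*, 0.52 for *Coro1c* and 1.26 for *Parvb*. For *Acta2*, *Actg2*, *Fhl1* and *Pdlim2*, which were lower in KO22, this is a smaller decrease. Order 8995 holds 1 library of each group.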

How the results depend on the processing

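Among the 10 genes, the alternatives run gave 7 to 8 calls for KO22 against WT, 7 to 8 for KO22 against KO26 and 0 for RPE/choroid. Leaving out single replicates gave 0 to 1 for KO26 against WT, 2 to 4 for the library orders and 0 to 0 for the KO22 effect between orders. Without the fold limit these 3 counts were 1, 7 and 3, and the WT libraries alone gave 4 for the orders. The interaction could not be fitted without WT replicate 1 or KO22 replicate 1. Without the order term, *Cnn1* was not called between KO22 and KO26 (log2 difference 2.65, edgeR adjusted p = 0.109), and in order 9262 alone the *Cnn2* difference from WT was −1.17, below the fold limit. The cause of these changes was not tested beyond what each alternative leaves out.

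The differences that changed sign were all uncalled. Leaving out single replicates, *Tpm2* in KO22 ranged from −0.33 to 0.0019, *Tpm1* in KO26 from −0.18 to 0.17, *Rai14* between the orders from −0.050 to 0.36, and the interaction of *Ablim1* from −0.23 to 0.053 and of *Myl9* from −0.19 to 0.43. In RPE/choroid, *Myl9* ranged from −0.28 to 0.029, *Tpm1* from −0.39 to 0.094 and *Tpm2* from −1.06 to 0.27. Other settings gave 0.052 for *Tpm1* in KO26 without the order term, −0.092 for *Rai14* between orders in WT alone, and −0.044, −0.045 and −0.0030 for the *Ablim1* interaction with DESeq2 size factors, the DESeq2 test and filterByExpr.

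Over all genes, the number called changed by over 1.5 times in places. KO26 against WT had 399 calls, with 114 to 878 when 1 replicate was left out (878 without KO22 replicate 1), 629 with DESeq2, 725 without the fold limit, 194 without the order term and 818 in the WT and KO26 libraries alone. RPE/choroid had 47 calls, with 9 to 40 when 1 replicate was left out (14, 21 and 21 without WT replicates 1, 2 and 3, and 33, 9 and 40 without KO replicates 1, 2 and 3), and 273 with DESeq2. The orders had 534, with 258 to 1632 (1632 without KO22 replicate 1), 1829 without the fold limit and 1398 in WT alone. The interaction had 2264, with 1446 by DESeq2 and 5432 without the fold limit, and 1203 of the 2264 were higher against 1049 of 2361 without KO22 replicate 2. KO22 against WT had 5154 and 10837 without the fold limit, and KO22 against KO26 had 3797, with 7132 without the fold limit and 2336 in those clones alone. The numbers of libraries, 4, 3 and 2 in mRPE and 3 for each tissue group, limit the differences that can be called. No paired analysis was possible because the labels give no replicate numbers shared between groups.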

Other observations

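In RPE/choroid the 8 macrophage markers summed to 268 to 339 CPM in WT and 225 to 314 CPM in the libraries labelled KO, and the 5 melanocyte markers to 217 to 278 CPM and 232 to 245 CPM, with none of either called. In mRPE the 3 listed macrophage markers stayed at 13.8 CPM or less in sum, and no melanocyte marker was listed.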
